A study of Mus musculus with 6 samples.

Results

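The EGF receptor ligands form a family of small growth factors, and 7 genes for them were examined here: Areg, Ereg, Btc, Epgn, Hbegf, Tgfa and Nrg1. They were found by their gene names among the 34745 genes of the count data, and all 7 were listed once. RNA had been sequenced from the murine lung cancer cell line 889, labelled as C57BL/6 lung, in 6 libraries. In 3 of them the cells carried Cas9 with a control sgRNA (sg-con, labelled control), and in 3 they carried Cas9 with kiaa1522 sgRNA (sg-kiaa1522). All 6 therefore share the line, the strain and Cas9, and nothing in the sources used here says which of the sgRNAs was sequenced, or whether the cells were a pool or a clone. The replicates are separate libraries, but no label says that they came from separate cultures, so the p-values measure the spread between these libraries. The question put to the ligands was whether their transcripts differed between the sg-kiaa1522 and the sg-con cells.

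These ligands are made as precursors that sit in the cell membrane, and a protease of the ADAM family cuts them to release the active growth factor. The released ligand binds a receptor of the ERBB family, receptors pair, and the pair signals through adaptors such as SHC and SOS to RAS, MEK and ERK. AREG, TGFA and EPGN bind EGFR, whereas HBEGF, BTC and EREG bind EGFR and ERBB4, and NRG1 binds ERBB3 and ERBB4. ERK signaling in turn raises the transcripts of several of the ligands themselves, and ligands made by the tumor cells are a well known growth signal in lung adenocarcinoma.

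A total of 4 of the 7 ligand genes lie near each other on chromosome 5 in the order Epgn, Ereg, Areg and Btc, within 376 kb from 91027464 to 91402994 of GRCm38. Epgn lies at chr5:91027464-91035215, Ereg at chr5:91074622-91093646 and Areg at chr5:91139599-91148432 on the plus strand, and Btc at chr5:91357261-91402994 on the minus strand. RefSeq promoters of GRCm38.p6 were matched for 4 of the 7 ligands, namely Areg, Btc, Tgfa and Epgn. The 250 bases before the start of Areg and of Btc are shown because these are the most abundant and the least abundant of the tested cluster genes per length of exons. Areg is read on the plus strand of chr5:91139349-91139598 and Btc on the minus strand of chr5:91402995-91403244, each 5′ to 3′, with capitals for the motifs found among 4 searched on both strands, a cAMP response element (TGACGTCA), a TATA box (TATAAA), an AP-1 site (TGACTCA) and an NFkB site, the last named only.
Areg: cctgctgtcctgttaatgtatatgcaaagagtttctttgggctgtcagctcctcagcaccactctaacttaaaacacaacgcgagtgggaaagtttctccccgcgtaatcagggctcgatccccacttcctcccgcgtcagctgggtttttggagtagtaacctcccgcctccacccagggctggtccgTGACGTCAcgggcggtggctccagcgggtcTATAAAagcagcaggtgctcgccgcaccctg
Btc: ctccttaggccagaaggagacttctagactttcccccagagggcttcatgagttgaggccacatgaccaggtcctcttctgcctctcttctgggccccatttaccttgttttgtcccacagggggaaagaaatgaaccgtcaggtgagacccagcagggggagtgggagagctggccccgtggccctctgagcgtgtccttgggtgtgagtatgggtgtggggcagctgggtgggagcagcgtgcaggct
The Areg promoter holds TGACGTCA with its first base 61 bases before the start, a sequence present on either strand in 1.55% of the 32851 promoters of this length. It also holds TATAAA 31 bases before the start, which 12.4% of the promoters hold. Neither sequence was found in these windows of Btc or Tgfa. The RefSeq window of Epgn holds TATAAA 86 bases before the RefSeq start, but 53 of its 250 bases lie inside the GENCODE gene whose position is given above. The AP-1 site, present in 4.46% of the promoters, and the NFkB site, present in 0.356%, were found in none of the 4 windows, which says only that these letters are not there. No motif found overlaps another. The G and C content was 57.2% in Areg, 59.6% in Btc, 69.2% in Tgfa and 46.8% in Epgn, against a median of 52.4%.

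The other 3 ligand genes lie on separate chromosomes, Tgfa on the plus strand at chr6:86195223-86275719, Hbegf on the minus strand at chr18:36504927-36515805, and Nrg1 on the minus strand at chr8:31814551-32884029. Antisense genes share 3.42% of the exon bases of Ereg and 4.66% of those of Nrg1, and reads of these bases could belong to either if the counting did not use strand. Areg, Btc, Hbegf and Epgn share no exon bases with another annotated gene.

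The libraries held between 12220001 and 18609376 counts, and 3 counts corresponded to between 0.162 and 0.247 CPM, which are counts scaled by the TMM method to the same library size. sg-con replicate 1 stood apart from the other sg-con libraries, with a chi-square per degree of freedom of 23.4 and 30.7 against them, whereas the other pairs of replicates lay between 12.3 and 12.8. C77080, the mouse kiaa1522 gene, had 127, 130 and 124 CPM in sg-con and 210, 203 and 216 CPM in sg-kiaa1522. Its transcript was therefore higher and not lower in the libraries labelled sg-kiaa1522 (log2 fold change 0.73, SE 0.0569, adjusted p = 9.1e-05 by edgeR's quasi-likelihood test), and an mRNA count does not measure the protein. Every direction below is that of the libraries labelled sg-kiaa1522. Of 8 epithelial markers, 4 were tested, led by Krt18 and Krt8, and 4 were at or near 0, among them Epcam with 0 counts in all 6 libraries. The summed level of the epithelial markers was 3811 to 4575 CPM in sg-con and 3218 to 3498 CPM in sg-kiaa1522, without overlap. Among them the adherens junction gene Cdh1 had 907, 1028 and 1030 counts against 259, 354 and 361. The 9 lung epithelial markers summed to 178 to 236 CPM against 155 to 218 CPM. Among them Nkx2-1 varied widely between replicates, with 970, 1096 and 227 counts against 132, 174 and 671. The 7 fibroblast markers, mostly Vim, summed to 4561 to 4794 CPM against 4794 to 5245 CPM. The other fibroblast markers with more than a few counts were lower in sg-kiaa1522. Col1a2 had 7294, 7780 and 7220 counts against 1965, 2867 and 2422, and Col1a1 105, 126 and 137 against 20, 29 and 34. Pdgfrb had 726, 799 and 740 counts against 414, 424 and 367. The summed level of 7 leukocyte markers lay between 2.27 and 6.03 CPM in sg-con and between 11 and 14 CPM in sg-kiaa1522, mostly through Cd68, while the defining leukocyte marker Ptprc had 14, 1 and 6 counts in sg-con and 1, 2 and 2 in sg-kiaa1522. The part of these markers in the ligand results was not tested.

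In these cells Areg was the most abundant ligand transcript per length, by a margin that depended on the length used. Levels of different genes were compared as TPM, a transcript level that divides the counts by the length of the exons and has the same sum in every library, whereas differences between the groups were tested on the counts. Areg, which encodes amphiregulin, reached 512 ± 35.3 TPM (SD, n = 3) in sg-con and 683 ± 22.3 TPM in sg-kiaa1522. Hbegf, the gene of heparin-binding EGF, followed with 112 ± 10.2 and 108 ± 14.8 TPM. Ereg, the gene of epiregulin, had 56.8 ± 5.58 and 89.6 ± 4.35 TPM, and Btc, the gene of betacellulin, had 33.9 ± 5.88 and 43.6 ± 4.05 TPM. Nrg1, the gene of neuregulin 1, stood far below with 1.37 ± 0.256 and 2.69 ± 0.41 TPM. With the mean length of its annotated transcripts in place of all its exons, Nrg1 had 3.57 ± 0.67 and 6.78 ± 1.03 TPM, still below the 4 others.

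The order was Areg, Hbegf, Ereg, Btc and Nrg1 in all 6 libraries, and no neighbours in this order overlapped within a group. Hbegf and Ereg came closest in sg-kiaa1522, where Hbegf ranged from 95.4 to 124 TPM and Ereg from 87 to 94.7 TPM. Epgn and Tgfa, the genes of epigen and of transforming growth factor alpha, were next to absent and overlapped each other. By the length of all exons, Areg supplied 71.4% of the summed ligand TPM in sg-con and 73.7% in sg-kiaa1522, and Hbegf 15.7% and 11.6%. The summed ligand TPM was 710, 700 and 740 in sg-con and 918, 900 and 964 in sg-kiaa1522, without overlap. TPM was not scaled by the TMM method. Summed as CPM, which uses no length, the ligands differed less, with 624, 601 and 609 against 687, 707 and 741. The TPM values depended on the length used. Divided by the mean length of the annotated transcripts, Areg had 267 ± 18.7 and 344 ± 9.2 TPM and Hbegf 149 ± 13.2 and 138 ± 18.4 TPM. Areg has 1 annotated transcript, so its own length of 1215 bases was the same on both scales. Its lower TPM came from the changed lengths of other genes, since TPM has a fixed sum. Areg then supplied 54.7% of the summed ligand TPM in sg-con and 59.1% in sg-kiaa1522, and Hbegf 30.5% and 23.7%. On this length Btc had 38.6 ± 6.6 TPM in sg-con, above the 29.7 ± 2.82 TPM of Ereg, and the 2 overlapped in sg-kiaa1522.

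**Figure D1:**
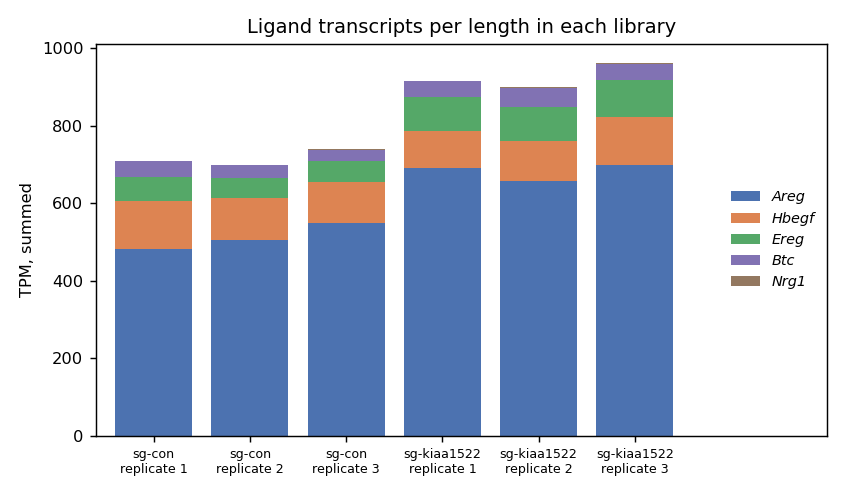
TPM, the transcript level per exon length, of Areg, Hbegf, Ereg, Btc and Nrg1, stacked for each of the 6 libraries on the y axis. Areg makes up between 67.8% and 75.3% of the summed ligand TPM of a library, and Nrg1 is too low to be seen.

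Between the groups, 3 of the 5 tested ligands were higher in sg-kiaa1522 at an adjusted p of at most 0.05 and 0 were lower. The rises were 1.85-fold for Nrg1, 1.48-fold for Ereg and 1.25-fold for Areg, whereas Btc and Hbegf did not pass the test, and Tgfa and Epgn lay below the filter of more than 500 counts over the 6 libraries. In RNA from whole cultures, a change in the number of cells that express a ligand and a change in its RNA per cell cannot be told apart. These shares have to be read against a large background, since 26.3% of the 10046 tested genes were higher and 26.3% were lower by the same rule. At the threshold of the study's methods, which also asks for a log2 fold change of at least 1, 0 of the 5 ligands were called in either direction, where 2.74% of the tested genes were higher and 4.34% lower. DESeq2's Wald test also called 0 ligands at that threshold. At an adjusted p of at most 0.05 alone, DESeq2 gave 3 ligands higher and 0 lower, where 2675 of the 10046 tested genes were higher and 2612 lower. The median log2 fold change of the 5 ligands was 0.32, beside -0.0067 for all tested genes. The CPM of the groups did not overlap for the 3 higher ligands and for 0 in the lower direction, where 30.6% and 31.1% of the tested genes did not overlap in these directions.

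Areg was counted 3872, 4488 and 4398 times in sg-con and 3742, 5430 and 5193 times in sg-kiaa1522. On the CPM scale these are 222, 242 and 264 against 308, 296 and 306. Every sg-kiaa1522 library lay above every sg-con library, and the sg-kiaa1522 libraries lay close together. The means were 243 ± 20.8 and 303 ± 6.39 CPM (SD, n = 3). On the log2 scale Areg rose by 0.32, with a 95% interval from 0.15 to 0.49 (SE 0.0737, adjusted p = 0.0082 by edgeR's quasi-likelihood test). Areg was the ligand with the most counts, and its rise was the smallest of the 3.

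Ereg lies 65 kb from Areg and encodes a ligand with low receptor affinity and prolonged signaling. Its counts were 1719, 1570 and 1512 in sg-con and 1604, 2440 and 2385 in sg-kiaa1522, or 98.7, 84.7 and 90.7 against 132, 133 and 140 CPM. The lowest sg-kiaa1522 library thus exceeded the highest sg-con library. The means of 91.4 ± 7 and 135 ± 4.55 CPM differed by a log2 fold change of 0.57 (95% interval 0.39 to 0.74, SE 0.0739, adjusted p = 6.8e-04 by edgeR's quasi-likelihood test).

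Nrg1 differs from the other 6 in its receptors, since neuregulins do not bind EGFR. It was counted 103, 116 and 73 times in sg-con and 103, 198 and 191 times in sg-kiaa1522, which gives 5.91, 6.26 and 4.38 against 8.49, 10.8 and 11.2 CPM. sg-con replicate 1 and sg-kiaa1522 replicate 1 had the same count, in libraries of 17487797 and 12220001 counts. The groups did not overlap in CPM, and the log2 fold change of 0.89 was the largest of the ligands with the widest interval, from 0.47 to 1.31 (SE 0.18, adjusted p = 0.0048 by edgeR's quasi-likelihood test). The interval includes the log2 fold change of 1 that the study's threshold asks for. At these counts the level of Nrg1 remained low in both groups.

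Btc was counted 1210, 1067 and 863 times in sg-con and 828, 1482 and 1142 times in sg-kiaa1522. In CPM the values were 69.4, 57.6 and 51.8 against 68.2, 80.8 and 67.3. The groups overlapped, because sg-con replicate 1 lay above 2 of the 3 sg-kiaa1522 libraries. The log2 fold change was 0.28 with a 95% interval from -0.019 to 0.57 (adjusted p = 0.1 by edgeR's quasi-likelihood test, exact two-sided permutation p = 0.3 on CPM), so that a rise was neither shown nor shown to be missing. Without sg-con replicate 1, the library that stood apart, it was 0.39 with an adjusted p of 0.018 in edgeR's test, and this was the only library whose removal changed the call of a ligand. Areg, Ereg and Nrg1 passed with and without this library, at log2 fold changes of 0.26, 0.62 and 0.93 without it.

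Hbegf was the only tested ligand with a lower mean in sg-kiaa1522. Its counts were 3958, 3893 and 3298 in sg-con and 2055, 3406 and 3662 in sg-kiaa1522, or 227, 210 and 198 against 169, 186 and 216 CPM. The groups overlapped, with sg-kiaa1522 replicate 3 above 2 of the sg-con libraries. Its log2 fold change of -0.15 had a 95% interval from -0.39 to 0.079 (adjusted p = 0.23 by edgeR's quasi-likelihood test, exact two-sided permutation p = 0.3 on CPM). A rise as large as the 0.32 of Areg lay outside this interval.

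Tgfa and Epgn were at the limit of detection. Tgfa was counted 2, 0 and 0 times in sg-con and 0, 1 and 0 times in sg-kiaa1522, so every library was below 3 counts. Epgn was counted 6, 7 and 0 times in sg-con and 9, 5 and 0 times in sg-kiaa1522, and each group had a library without a read. Differences between the groups were not detectable at this depth for either gene, with exact two-sided permutation p = 1 for Tgfa and 0.9 for Epgn on CPM, where 3 libraries against 3 cannot give less than 0.1. Epgn starts only 47.2 kb from Ereg, whose lowest count in a library was 1512.

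**Figure D2:**
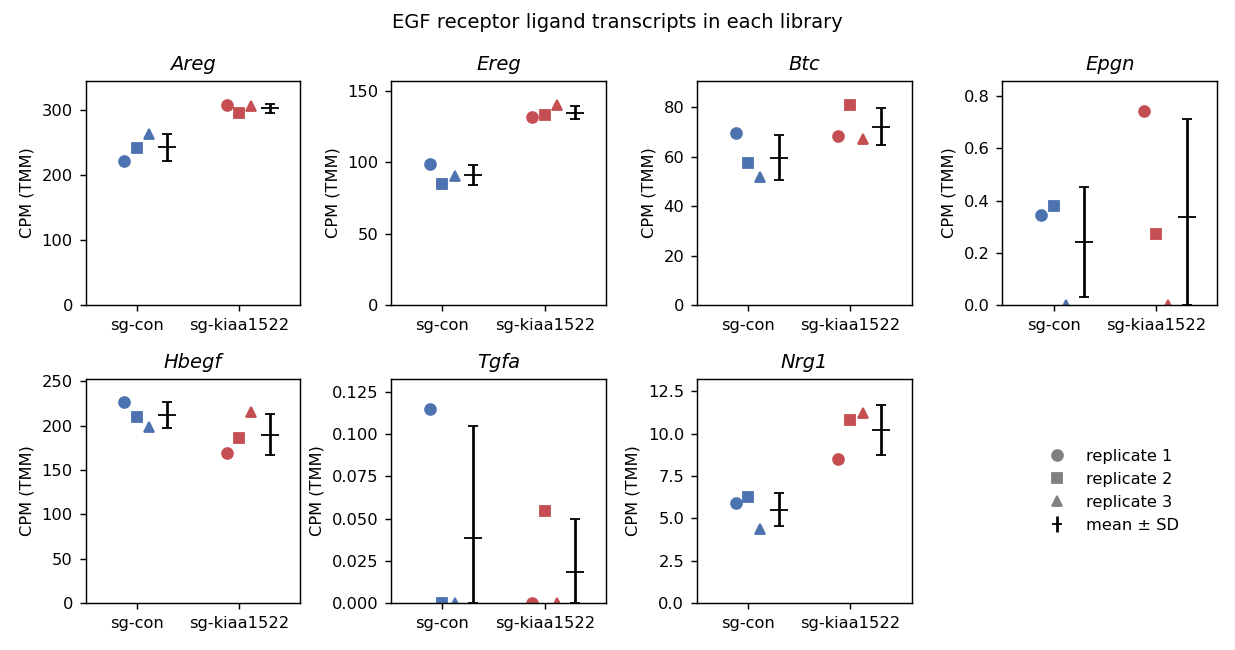
CPM of each of the 7 ligands (y axis, from 0, a scale for each gene) in the 3 sg-con and 3 sg-kiaa1522 libraries (points, shape by replicate number), with the mean ± SD of each group as bars, cut at 0. Areg, Ereg and Nrg1 do not overlap between the groups, Btc and Hbegf do, and Epgn and Tgfa stay below 1 CPM.

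**Figure D3:**
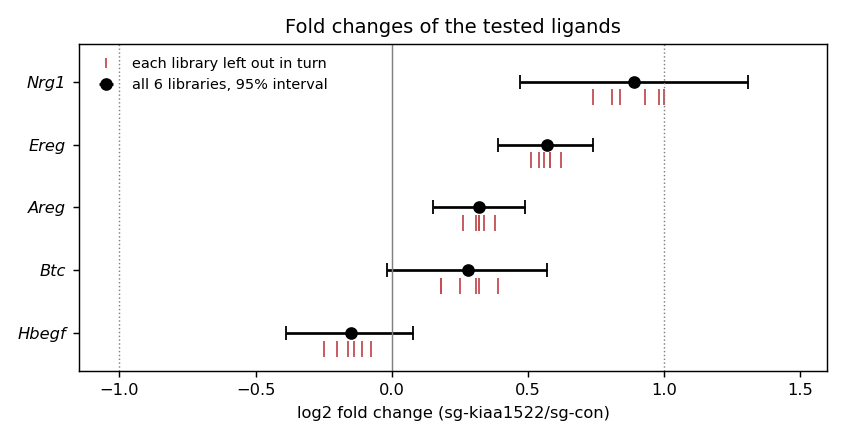
Log2 fold change of sg-kiaa1522 over sg-con (x axis) for the 5 tested ligands with its 95% interval (points and bars), and the values with each of the 6 libraries left out in turn (ticks). The dotted lines mark the threshold of 1 in size of the study's methods, and no point reaches it.

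The proportions of the ligands to each other were compared within each library, where sequencing depth cancels out. The CPM of Areg over that of Hbegf was 0.978, 1.15 and 1.33 in sg-con and 1.82, 1.59 and 1.42 in sg-kiaa1522. That of Ereg over Hbegf was 0.434, 0.403 and 0.458 against 0.781, 0.716 and 0.651. In both ratios every sg-kiaa1522 library lay above every sg-con library, by 0.48 and 0.73 in mean log2 ratio, with an exact two-sided permutation p of 0.1, the smallest possible, and 0.2 after adjustment over the 4 ratios compared. Both divide a ligand already found higher by Hbegf, the only tested ligand with a lower mean. Their separation therefore restates the CPM above and is no further evidence. Nrg1 was in none of the 4 ratios. Ereg over Areg overlapped between the groups (mean log2 difference 0.24, exact permutation p = 0.2, adjusted 0.267), as did Btc over Areg (-0.045, exact permutation p = 0.8, adjusted 0.8).

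The genes beside the ligands were compared because 4 ligands share a stretch of chromosome 5. Within 500 kb of the start of Areg, 18 genes were listed and 5 were tested, among them Ereg and Btc. The neutrophil chemokine Cxcl1, 248 kb from Areg, fell by 3.18 on the log2 scale (SE 0.125, adjusted p = 8.4e-06 by edgeR's quasi-likelihood test), from 46.2 ± 2.81 to 5.12 ± 0.711 CPM. Its counts of 784, 818 and 823 in sg-con and 70, 96 and 74 in sg-kiaa1522 lay far apart. Mthfd2l, a gene of mitochondrial folate metabolism that lies between Cxcl1 and Epgn, and Parm1, the tested gene beyond Btc, had log2 fold changes of -0.074 and 0.069 (adjusted p = 0.59 for both in edgeR's test) and are named for their position. Around Hbegf 14 neighbours were tested, of which 4 were higher and 5 lower at an adjusted p of at most 0.05 and 0 passed the study's threshold. For Tgfa the numbers were 11 tested, 2 higher and 2 lower. By this rule 26.3% of all tested genes passed in each direction. Nrg1 had 1 neighbour in this window and 0 tested.

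**Figure D4:**
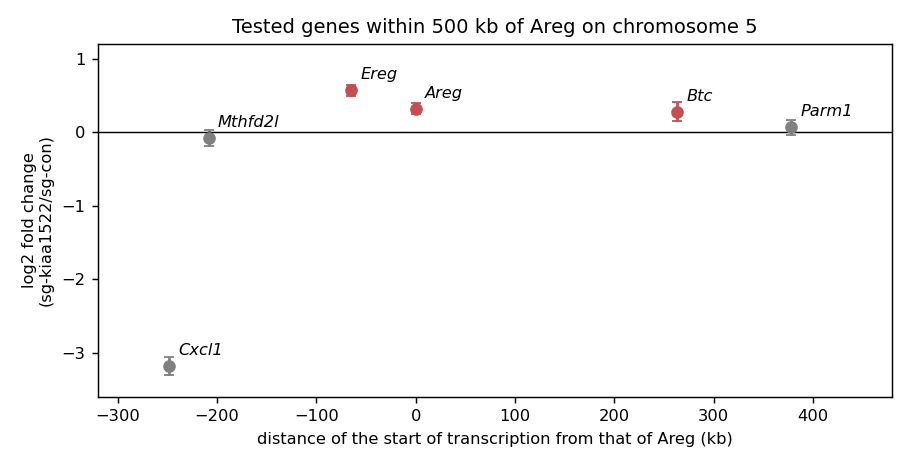
Log2 fold change of sg-kiaa1522 over sg-con (y axis, bars SE) of the tested genes within 500 kb of Areg, by the distance of their start of transcription from that of Areg in kb (x axis). The ligands (red) lie between 0.28 and 0.57, Mthfd2l and Parm1 (grey) lie near 0, and Cxcl1 (grey) lies at -3.18.

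The receptors of these ligands were unevenly represented. Egfr, the receptor that the family is named for, was listed with 0 counts in all 6 libraries, and Erbb4 likewise, so each was below 3 counts or at most 0.247 CPM in every library. Both are named here after their counts were seen, and the cause of the 0 counts was not tested. A count of 0 in all 6 libraries was listed for 31% of the 21633 protein-coding genes. Distances from Egfr are given between starts of transcription. Egfros lies within Egfr on the other strand, with its start 78.5 kb away, and also had 0 counts in all 6 libraries. Eldr, 199 kb away, had 49, 67 and 40 counts in sg-con and 14, 13 and 8 in sg-kiaa1522. Cnrip1 and Plek had at most 11 counts in a library. Sec61g, 244 kb away, had between 397 and 722 counts, and Ppp3r1, 407 kb away on the other side, had between 1905 and 2961. Erbb3, the NRG1 receptor with a weak kinase, fell from 46.9, 40.3 and 42.2 CPM to 32.2, 32.3 and 29.6 CPM, without overlap (log2 fold change -0.46, SE 0.0891, adjusted p = 0.004 by edgeR's quasi-likelihood test). Erbb2, the receptor without a ligand of its own that pairs with the others, had 56.5, 67.3 and 69.9 against 56.2, 53.8 and 54.1 CPM. Its log2 fold change of -0.24 did not pass (95% interval -0.46 to -0.018, unadjusted for the number of genes, adjusted p = 0.067 in edgeR's test), but it did without sg-con replicate 1, at -0.33 with an adjusted p of 0.0045. Per length, Erbb2 had 31.7 and 28.7 TPM and Erbb3 18.4 and 14.3 TPM in sg-con and sg-kiaa1522, below Areg by a wide margin. Of the other ligands of the family, Egf, Nrg2, Nrg3 and Nrg4, only Nrg4 was tested, with a log2 fold change of 0.17 (adjusted p = 0.41 in edgeR's test). This value ranged from 0.05 to 0.33 over the libraries left out, and Nrg4 passed in none of these fits. Nrg2, just below the filter with 482 counts in all, was counted 86, 116 and 98 times in sg-con and 41, 81 and 60 times in sg-kiaa1522, with means of 5.69 and 3.78 CPM. Egf had means of 1.3 and 0.877 CPM and Nrg3 had 0 counts. The groups of Nrg2 and Egf did not overlap in CPM, with the lower values in sg-kiaa1522, and neither gene was tested.

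Of 14 listed genes for the release of the ligands, 11 were tested, 2 were higher and 3 lower at an adjusted p of at most 0.05 in edgeR's test, with a median log2 fold change of 0.0073. These counts have to be read beside the 26.3% of all tested genes in each direction, and the genes below are values of single genes. Rhbdf1, an inactive rhomboid that guides the sheddase ADAM17 to the cell surface, rose by 0.53 on the log2 scale, from 93 ± 4.41 to 134 ± 9.34 CPM. Cd9, a tetraspanin that binds the HBEGF precursor, rose by 0.45, from 845 ± 50.1 to 1151 ± 55.2 CPM. Adam10, the protease for the betacellulin and EGF precursors, fell by 1.36, from 500, 176 and 403 CPM to 135, 145 and 139 CPM. The sg-con libraries of Adam10 were far apart and the sg-kiaa1522 libraries close together. Adam15 fell by 0.65 and Adam12 by 0.34, and 20.6% of the exon bases of Adam15 are shared with an antisense gene. Adam17, the main protease for AREG, EREG, TGFA and HBEGF, is named for this role and not by its values. It had 113 ± 13.6 and 103 ± 0.819 CPM, overlapping groups and an adjusted p of 0.23 in edgeR's test.

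Among 15 tested inhibitors and turnover genes of the receptors, 6 were higher and 1 lower at an adjusted p of at most 0.05 in edgeR's test (median log2 fold change 0.17), where 26.3% of all tested genes passed in each direction. Sh3kbp1, the CIN85 adaptor that links CBL to receptor uptake, rose from 7.84 ± 1.85 to 34.5 ± 6.15 CPM, a log2 fold change of 2.14. The ubiquitin ligases Cblb and Cbl, which mark EGFR for breakdown, rose by 0.68 and 0.57 on the log2 scale, and Errfi1, whose product MIG6 blocks the receptor kinase, by 0.51. The lower gene was Socs4, at -0.45. Among 24 tested adaptors and effectors, 5 were higher and 5 lower (median 0.041), beside 26.3% of all tested genes in each direction. The RAS exchange factors Sos1 and Sos2 rose by 0.93 and 0.57, the docking gene Gab2 by 0.45 and the MEK gene Map2k1 by 0.32. The adaptor Shc1 fell by 0.91 on the log2 scale, from 310 ± 1.88 to 165 ± 8.26 CPM, and the ERK gene Mapk3 by 0.39. Pik3r1 at -0.32 no longer passed without sg-kiaa1522 replicate 1, 2 or 3 (adjusted p = 0.065, 0.12 and 0.073 in edgeR's test). Araf at -0.24 passed without sg-con replicate 1, but without any other library its adjusted p was between 0.053 and 0.14 in edgeR's test. Without sg-con replicate 1 the adaptors numbered 9 higher and 5 lower, where 2970 and 2962 of the 10046 tested genes passed. In the fit that blocks on replicate numbers there were 4 higher and 2 lower, where 2109 and 2111 of the tested genes passed.

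The early transcripts that receptor signaling induces moved in both directions. All 20 were tested, and 10 were higher and 7 lower at an adjusted p of at most 0.05 in edgeR's test (median log2 fold change 0.25), beside 26.3% of all tested genes in each direction. Fosl1, an AP-1 subunit, rose from 69.4 ± 9.47 to 175 ± 13.4 CPM (log2 fold change 1.33), although 57.2% of its exon bases are shared with Ccdc85b on the other strand and the sources used here do not state whether the counting used strand. Spry4, a feedback inhibitor of the RAS pathway, rose by 1.14, Myc by 0.78 and the small MAF gene Maff by 0.59. Fos, another AP-1 subunit, fell by 2.46 on the log2 scale, from 279, 280 and 290 CPM to 61.9, 41.3 and 51.7 CPM. Egr2 fell by 2.01, Egr1 by 1.37, from 579 ± 16.8 to 223 ± 10.9 CPM, and Ier2 by 0.73. Areg, Ereg and Nrg1 had the direction of the 10, and Fos, Egr1 and Egr2 the opposite one. Since these genes were grouped by their direction, this comparison is no test. A link between the early transcripts and the ligands was not tested.

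**Figure D5:**
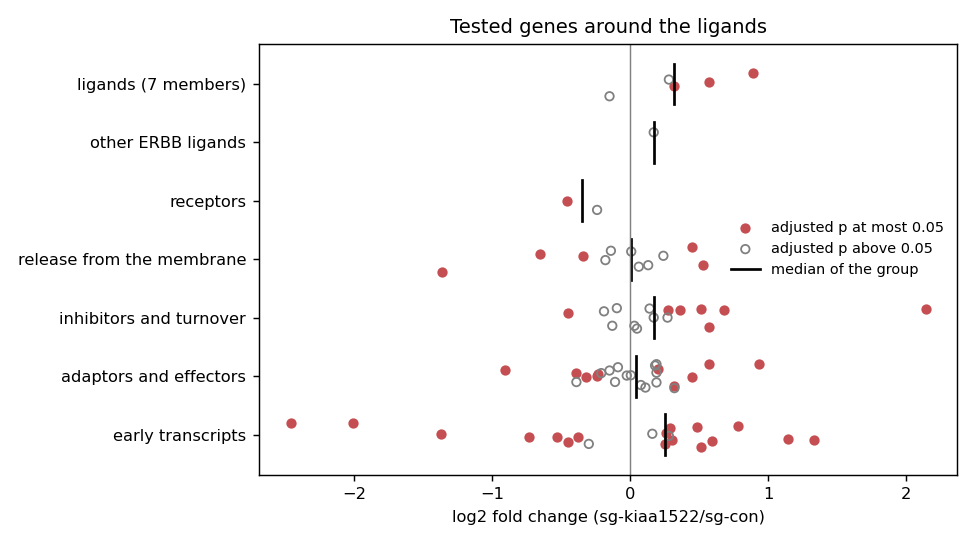
Log2 fold change of sg-kiaa1522 over sg-con (x axis) of every tested gene of each group (points, filled where the adjusted p is at most 0.05) and the median of the group (black line). Filled points of the ligands lie to the right of 0 only, whereas the early transcripts reach from -2.46 to 1.33.

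Finally, the tested genes outside the family with the profile most like that of each ligand were sought, by the root-mean-square difference of log2 CPM over the 6 libraries after centring each gene on its mean. For Areg they were Fbxo22, Pgd and Gm10275, with differences of 0.0281 to 0.033. For Ereg they were Ppm1l, Grpel2 and Nkain1 (0.0189 to 0.0291), for Hbegf Elf1 and Tceanc (0.0458 and 0.0507), and for Btc Htt, Fubp1 and Kif16b (0.0464 to 0.0548). Such profiles were common, since 577 genes lay within 0.1 of Areg, 400 within 0.1 of Ereg, 239 of Hbegf and 177 of Btc. Nrg1 was the exception, with only Prdm15 and Tbcel within 0.1 (0.0569 and 0.0905) and Zswim1 next at 0.108. The 6 points of each profile share their libraries and fall into 2 groups, so a small difference is largely set by a like fold change.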

How the data were processed

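The authors deposited raw counts per gene for each of the 6 libraries. Per the paper's methods and the submitters' processing notes, they removed adaptors and rRNA reads with Seqtk, mapped reads to GRCm38 with HISAT2 2.0.4 and counted uniquely mapped fragments with StringTie 1.3.0. Strand use and the annotation version are not given in the sources used here. Groups and replicate numbers came from the labels. The 10046 genes whose counts summed to more than 500 were tested with TMM normalization and edgeR 4.0.16's quasi-likelihood test (R 4.3.3) without covariates, with Benjamini-Hochberg adjustment over all of them. Intervals of fold changes are 95% intervals of that fit. TPM used the exon length of GENCODE M21 on GRCm38. Limits of 3 counts cover counting error only. Ratios and CPM of single ligands were tested by exact permutation of the libraries, two-sided.

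The members and the pathway lists were chosen with earlier results of these data known, so they are no independent evidence. By rule, the named genes are the 7 ligands, C77080, tested receptors, up to 4 rises and 4 falls by size per list at an adjusted p of at most 0.05, neighbours past the study's threshold and the 3 most alike genes per ligand, of which 1 is not reported here. Outside this rule, Egfr, Erbb4 and the genes around Egfr, and the markers of cell types, were named after their values were seen, the other ligands of the family as a whole list, Adam17 for its role, and Mthfd2l and Parm1 for their position. Alternatives were DESeq2 1.42.0, normalization by RLE or by the library total, 2 other filters, a replicate block and each library left out. On simulated counts of this comparison (10046 genes), edgeR recovered 93 of 93 genes changed by 1 and 107 of 107 changed by 2 on the log2 scale, with 13 false calls. The simulation gave all genes the same spread between libraries relative to their level and held no smaller changes. It therefore does not measure the recovery of changes as small as those of the ligands.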

Additional observations from a re-analysis of the deposited data

How the results depend on the processing

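Under all 12 alternatives, Areg (log2 fold change 0.26 to 0.38), Ereg (0.51 to 0.62) and Nrg1 (0.74 to 1.0) kept an adjusted p of at most 0.05, and Hbegf (-0.25 to -0.077) kept missing it. Btc passed in 1 of the 12, without sg-con replicate 1, and ranged from 0.18 to 0.39 over the libraries left out. By adjusted p alone, 3 ligands were higher, and none was called with a log2 fold change of at least 1 or 2. Without a filter, Tgfa (-0.68, SE 1.8, adjusted p = 0.79) and Epgn (0.34, SE 1.05, adjusted p = 0.82) did not pass in edgeR. With the mean transcript length, Btc ranked 3 and Ereg 4 in both groups.

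Same-numbered libraries correlated at -0.21, -0.051 and -0.17 in their deviations from the group means, so the numbers do not pair the samples. With the replicate number as a block, the log2 fold changes were 0.33 for Areg (adjusted p = 0.028), 0.57 for Ereg (0.0057) and 0.89 for Nrg1 (0.017) in edgeR, and the lower adaptors and effectors numbered 2.

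The alternatives of the lists and neighbours were added after seeing the data. Over the libraries left out, the lower receptors numbered 1 to 2, the higher adaptors and effectors 4 to 9 and the lower ones 2 to 5, while 2062 to 2970 of the 10046 tested genes were higher and 2083 to 2962 lower. Parm1 changed sign, to -0.029, without sg-con replicate 3. The median log2 fold change of the genes for ligand release became -0.021 without sg-con replicate 3 and -0.022 without sg-kiaa1522 replicate 2. It was -0.0074 with normalization by the library total. For the adaptors and effectors the median was -0.037 without sg-con replicate 1 and 0.084 without sg-con replicate 3. The causes were not tested. Tgfa and Epgn had at most 9 counts in a library, too few for a difference to be detectable. Nrg1 had the fewest counts (784) and the largest SE of the tested ligands.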
